A study of Schizosaccharomyces pombe with 6 samples.

Results

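The contacts described here are those of AseI restriction fragments that carry a tRNA gene and lie on the chromosome arms of Schizosaccharomyces pombe (fission yeast). They were measured by Genome Conformation Capture (GCC), in which cross-linked chromatin is cut with AseI, the fragments held together are ligated, and the joined DNA is sequenced from both ends. A fragment was a member when its deposited annotation named a tRNA and it did not overlap the centromere windows, which were bases 3740000 to 3800000 on chromosome I, 1590000 to 1655000 on chromosome II and 1065000 to 1145000 on chromosome III. Pairs in which either fragment was annotated with an LTR (the long terminal repeat of a retrotransposon) or with rRNA were left out, as were pairs of adjacent fragments. Of 136 nuclear fragments annotated with a tRNA, 28 lay in the windows and 11 others carried an LTR or rRNA annotation, which left 97 of the 9464 nuclear fragments in the tables. They hold 102 of the 171 nuclear tRNA genes of the reference annotation. In the windows there are 55 tRNA genes, on the 11 LTR or rRNA fragments 12, and on fragments that the deposited annotation does not mark as tRNA 2. These arm tRNA fragments were joined in 953 of the 84482 non-adjacent nuclear pairs of G1 phase, 947 of the 71656 of G2 phase and 786 of the 59578 of M phase. Values that follow each other in sets of 3 below are those of G1, G2 and M phase, in this order.

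The study asked how the organization of the S. pombe genome differs between phases of the cell cycle. Cultures were shifted to 36°C for 4 h, which arrested strain MY291 (cdc10-129) in G1 phase, strain MY284 (cdc25-22) in G2 phase and strain MY286 (nuc2-663) in M phase. The methods describe all strains as h- and auxotrophic for leucine, and give microscopic estimates of how completely each culture was synchronized. There were 6 libraries, 2 biological replicates for each phase, and each table pools both. No spread between replicates can therefore be given, tests between phases compare pooled tables, and phase, strain and library preparation cannot be told apart.

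tRNA genes are transcribed by RNA polymerase III from promoters with elements that lie within the gene. The factor TFIIIC binds the A box and the B box of the gene and brings in TFIIIB and the polymerase. In fission yeast the centromeres are flanked and interrupted by clusters of tRNA genes, some of which act as boundaries of the pericentromeric heterochromatin, while the remaining tRNA genes are dispersed over the arms. Many tRNA genes of a family are exact copies of each other: the 171 nuclear genes have 69 different sequences, and 133 of them have at least 1 identical copy elsewhere in the genome.

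The sequences of the genes on the most strongly joined tRNA pairs are shown because the results below are ordered by the sequence that the fragments of a pair have in common. They were read 5′ to 3′ along the gene from the RefSeq reference (ASM294v3 in its table of genes, whose coordinates can differ from those of the deposited tables). Capitals mark the B box, searched as GGTTCGA followed by any 2 bases and CC, where the gene holds these letters. These letters, searched on the gene's own strand, were found in 96 of 171 tRNA genes (56.1%). On either strand they were found in 104 of 172216 windows of 73 bp, the median length of a tRNA gene, that tile the nuclear genome (0.0604%). The windows do not overlap, so letters cut by a window edge are missed, and they include the tRNA genes themselves.
SPBTRNAGLN.02 (chrII:257908-257979, minus strand): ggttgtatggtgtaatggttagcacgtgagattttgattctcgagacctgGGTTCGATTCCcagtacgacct
SPBTRNAGLN.04 (chrII:355920-355991, plus strand): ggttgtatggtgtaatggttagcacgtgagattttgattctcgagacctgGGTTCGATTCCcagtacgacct
SPATRNAALA.02 (chrI:1195592-1195663, minus strand): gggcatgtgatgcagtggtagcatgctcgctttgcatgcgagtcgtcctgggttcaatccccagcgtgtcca
SPATRNAALA.03 (chrI:3157430-3157501, plus strand): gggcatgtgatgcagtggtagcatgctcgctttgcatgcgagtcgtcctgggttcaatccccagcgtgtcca
SPBTRNASER.06 (chrII:3350594-3350688, plus strand): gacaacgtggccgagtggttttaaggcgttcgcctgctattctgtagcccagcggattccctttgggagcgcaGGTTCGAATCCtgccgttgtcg
SPCTRNASER.13 (chrIII:2072080-2072174, plus strand): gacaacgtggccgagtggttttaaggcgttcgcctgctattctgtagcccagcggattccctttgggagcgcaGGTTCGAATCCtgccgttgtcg
In each of these 3 pairs the genes are identical over their whole length, which is 72 bp for the glutamine and alanine genes and 95 bp for the serine genes.

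A further set is shown because its genes differ by 1 base and their fragments were joined far less often. In the lysine genes the capital marks that base, and in the arginine genes the capitals again mark the B box.
SPATRNALYS.01 (chrI:1704582-1704664, plus strand): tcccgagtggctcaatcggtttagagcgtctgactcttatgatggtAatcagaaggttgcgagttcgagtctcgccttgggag
SPATRNALYS.04 (chrI:2684683-2684765, minus strand): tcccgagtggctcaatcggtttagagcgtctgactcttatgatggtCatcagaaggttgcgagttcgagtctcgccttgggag
SPBTRNAARG.04 (chrII:326652-326724, minus strand): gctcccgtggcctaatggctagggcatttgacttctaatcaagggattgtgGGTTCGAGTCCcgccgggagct
SPCTRNAARG.08 (chrIII:578847-578919, plus strand): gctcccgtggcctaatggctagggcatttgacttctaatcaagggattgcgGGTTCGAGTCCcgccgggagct
Counted from the 5′ end of the gene, SPATRNALYS.01 and SPATRNALYS.04 differ by A47C and SPBTRNAARG.04 and SPCTRNAARG.08 by T50C.

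Counts are the number of read pairs that join a pair of fragments, and a pair with at least 3 counts is called an interaction, the cut-off of the study. Unless stated otherwise, the study applied it to uniquely positioned fragments only, whereas the counts here include ends on repeated sequence. The interactions here are therefore not those of the study. The 97 fragments held 14708 of the 2056860 counts of the non-adjacent nuclear network of G1 phase (0.715%, Wilson 95% interval 0.704 to 0.727). They held 14565 of 2196581 counts in G2 phase (0.663%, 0.652 to 0.674) and, for M phase, 11374 of 2119634 (0.537%, 0.527 to 0.547). The share was thus highest in G1 phase and lowest in M phase, and the intervals, which cover counting error only, did not overlap. In G1 phase 268 of the 953 pairs were interactions (28.1%), against 17.9% of all network pairs. In G2 phase 309 of 947 were (32.6%), against 19.3%, and in M phase 234 of 786 (29.8%), against 16.2%. Network values here and below include pairs with LTR and rRNA fragments, unless stated otherwise, and the arm tRNA pairs do not. In the network without these fragments and without the arm tRNA pairs, interactions were 1900 of 26756, 2675 of 25091 and 1745 of 22393 pairs. Most of the remaining pairs were single counts, 633, 576 and 519 pairs.

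The partners were mainly other tRNA genes, on the arms or in the centromere windows. In G1 phase 107 pairs joined an arm tRNA fragment with another one and held 7145 counts, 310 pairs joined one with a fragment in a centromere window and held 6487 counts, and 536 pairs with any other fragment held 1076 counts. The classes, in the same order, held 6855, 6571 and 1139 counts in 106, 361 and 480 pairs of G2 phase. M phase had 5550, 5153 and 671 counts in 103, 292 and 391 pairs. Other fragments thus made up the most pairs in each phase, but at most 7.82% of the counts.

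Among interactions, pairs of arm tRNA fragments made up 94 of 268 (35.1%, Wilson 95% interval 29.6 to 41.0), 98 of 309 (31.7%, 26.8 to 37.1) and 95 of 234 (40.6%, 34.5 to 47.0). Pairs with a centromere window made up 135 (50.4%), 140 (45.3%) and 118 (50.4%) interactions. Pairs with other fragments made up 39 (14.6%), 71 (23.0%) and 21 (8.97%). Of the 9 class comparisons between phases, 1 had an adjusted p under the threshold of 0.05. The share of other fragments was 14 percentage points higher in G2 than in M phase (two-sided Fisher's exact test, p = 1.54e-05, adjusted p = 0.000184 over the 12 tests of this family). The units of this test are pairs of 1 pooled table per phase, which share fragments and are not replicates of a phase, so that the p-values describe these tables and give no test of the phase itself. By the same exact test this difference was not past the threshold when pairs with a stretch of sequence in common were left out (45.9 points, adjusted p = 0.118) or when LTR and rRNA fragments were kept (3.15 points, adjusted p = 0.706).

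**Figure D1:**
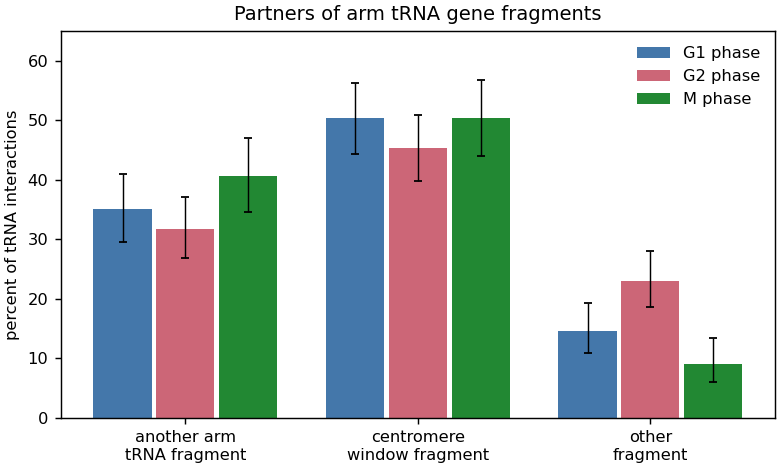
Share of tRNA interactions (percent, bars starting at 0) by partner class in G1, G2 and M phase, with Wilson 95% intervals of counting error. Centromere windows take 45.3% to 50.4% in every phase, and the share of other fragments is highest in G2 phase (23.0%) and lowest in M phase (8.97%).

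Which arm tRNA fragments were joined went with the sequence they have in common. The 97 fragments form 4654 possible non-adjacent pairs, and in 92 of them both fragments contain the same stretch of at least 50 bp, the length of the sequenced ends. All 92 were joined in every phase. Of the other 4562 possible pairs, 15, 14 and 11 were joined. The 92 pairs held 7120 of the 7145 counts between arm tRNA fragments (99.7%), 6814 of 6855 (99.4%) and 5525 of 5550 (99.5%). An end that lies wholly in a stretch present in both fragments cannot be placed on 1 of them by its sequence, and the tables include ends placed on repeated sequence. Its part in these counts was not tested.

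The counts of the 92 pairs ran from 6 to 299 with a median of 59.5, from 6 to 259 with a median of 53 and from 2 to 210 with a median of 46. All 92 passed the cut-off in G1 and G2 phase and 91 in M phase. In every one of them the fragments carry a tRNA gene of the same amino acid, and in 80 they carry an identical gene. The longest stretch in common had a median of 75 bp and ran from 50 to 113 bp. In all 92 pairs every shared 50 bp stretch overlapped a tRNA gene, and in 11 all of them lay wholly within it.

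**Figure D2:**
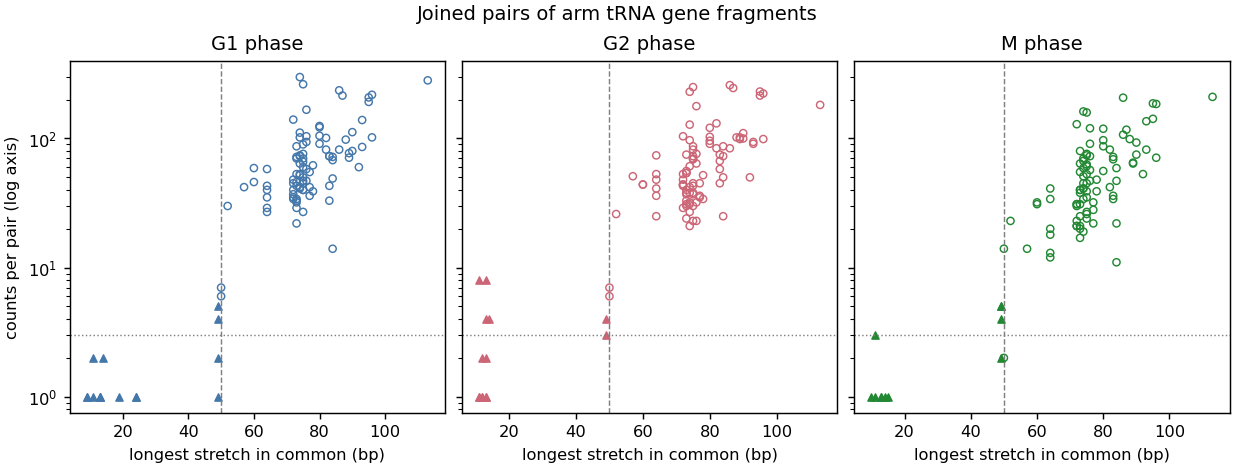
Counts per joined pair of arm tRNA fragments (log axis) against the longest stretch of sequence that the fragments have in common (bp), 1 panel per phase, with open circles for stretches of at least 50 bp, filled triangles for shorter ones, a dashed line at 50 bp and a dotted line at the cut-off of 3 counts. The 92 pairs right of or on the dashed line reach from 2 to 299 counts, and no pair left of it exceeds 8.

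The change lay close to 50 bp. Of 8 possible pairs whose longest common stretch was 40 to 49 bp, 4, 2 and 4 were joined, with 12, 7 and 16 counts in all. Of 5 possible pairs at 30 to 39 bp none was joined in any phase. At 20 to 29 bp 2 of 55 possible pairs were joined in G1 phase, with 1 count each, and 0 of 55 in G2 and in M phase. Below 20 bp 9, 12 and 7 of 4494 possible pairs were joined (0.2%, 0.267% and 0.156%). A count of 0 allows up to 3 counts, so weak contacts of single pairs were not detectable at this depth.

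Among the lysine genes shown above, pairs that differ by 1 base had few counts. SPATRNALYS.04, SPATRNALYS.05 and SPBTRNALYS.09 are identical, and their fragments were joined by 86, 94 and 82 counts (SPATRNALYS.04 with SPATRNALYS.05), by 82, 84 and 107 counts (SPATRNALYS.04 with SPBTRNALYS.09) and by 102, 99 and 71 counts (SPATRNALYS.05 with SPBTRNALYS.09). SPATRNALYS.01 differs from them at position 47, which leaves a longest common stretch of 49 bp. Its fragment was joined to the fragment of SPATRNALYS.04 by 5, 3 and 4 counts, to that of SPATRNALYS.05 by 1, 0 and 5 counts and to that of SPBTRNALYS.09 by 2, 0 and 5 counts. The lowest count among the identical genes was thus 71 and the highest with SPATRNALYS.01 was 5. The arginine genes SPBTRNAARG.04 and SPCTRNAARG.08, also with 49 bp in common, were joined by 4, 4 and 2 counts.

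Just past 50 bp, SPATRNACYS.02 shares a single 50 bp stretch with SPATRNACYS.01, with 6, 7 and 2 counts, and a single one with SPATRNACYS.03, with 7, 6 and 14 counts. SPATRNALEU.02 and SPBTRNALEU.05, which share 3 such stretches, had 30, 26 and 23 counts. Over the 92 pairs the number of shared 50 bp stretches and the counts had a Spearman rho of 0.58, 0.56 and 0.63 (Pearson's r 0.54, 0.54 and 0.63), given as a description because many pairs share a fragment.

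Counts per pair were mostly lower for genes with more copies. For the 9 pairs whose identical gene occurs 2 times in the nuclear genome, the median was 167, 178 and 120 counts. For the 22 pairs with 6 copies it was 55.5, 35 and 56, and for the 11 pairs with 8 copies 35, 44 and 31. The order was not strict, since the 21 pairs with 7 copies had medians of 62, 58 and 48, and no test was made.

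**Figure D3:**
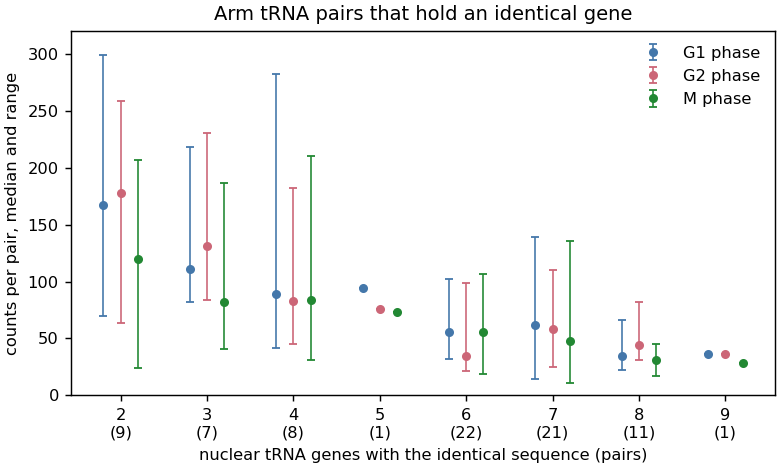
Counts per pair (median as a point, lines from the lowest to the highest pair) for the 80 pairs of arm tRNA fragments that hold an identical gene, by the number of nuclear genes with that sequence, with the number of pairs in brackets. In G1 phase the median falls from 167 counts at 2 copies to 35 at 8 copies.

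The 5 pairs of arm tRNA fragments with the most counts joined glutamine, alanine and serine genes. A chromosome II fragment with the glutamine genes SPBTRNAGLN.01 and SPBTRNAGLN.02 (bases 257423 to 258207, as the tables give them) was joined to the fragment of SPBTRNAGLN.04 (bases 355546 to 357322) by 236, 259 and 207 counts. They lie 97338 bp apart, and SPBTRNAGLN.01 differs from SPBTRNAGLN.04 by 1 base (C34T, from the 5′ end of the gene) where SPBTRNAGLN.02 is identical to it. The alanine genes SPATRNAALA.02 (chromosome I, 1193112 to 1195998) and SPATRNAALA.03 (chromosome I, 3154152 to 3158828) were joined by 299, 230 and 162 counts over 1958153 bp. On the same chromosome the fragment of SPATRNASER.01 and SPATRNAMET.01 (1096345 to 1096741) was joined to that of SPATRNASER.03 and SPATRNAMET.03 (4258570 to 4259714) by 282, 182 and 210 counts. In fission yeast such serine and methionine genes stand in tandem and are transcribed as 1 precursor. Here the methionine genes are identical, the serine genes are 91.8% identical, and the longest stretch in common, 113 bp, was the longest of all 92 pairs.

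On chromosome III the glutamine genes SPCTRNAGLN.05 (1862995 to 1863645) and SPCTRNAGLN.06 (2074823 to 2079291) were joined by 263, 250 and 159 counts. Glutamine genes thus made up 2 of the 5 pairs, yet SPBTRNAGLN.04 and SPCTRNAGLN.05, whose longest common stretch is 19 bp, were joined by 1 count in G1 phase and 0 in the others. The fifth pair lay on different chromosomes, with 218, 223 and 185 counts between SPBTRNASER.06 (chromosome II, 3348203 to 3351793) and SPCTRNASER.13 (chromosome III, 2069438 to 2072877). In 4 of the 5 pairs the CPM (counts of a pair relative to all network counts of its phase, on the usual CPM scale) was lower in M phase than in G1 and in G2 phase. In the serine and methionine pair it was lowest in G2 phase, at 82.9 against 137 in G1 and 99.1 in M phase.

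**Figure D4:**
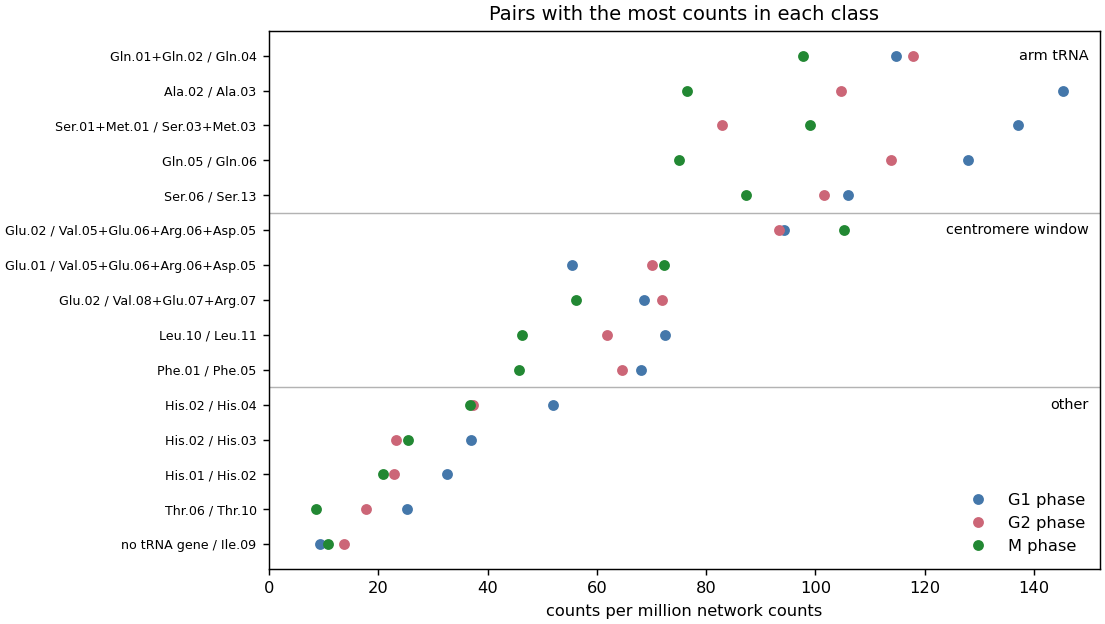
CPM, relative to network counts (points, 1 per phase) of the 5 pairs with the most counts in each partner class, named by amino acid and gene number. In G1 phase the alanine pair of the arm tRNA class reaches 145 and the highest pair with a centromere window 94.3.

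The chromosomes of the joined pairs were divided much as those of all possible pairs. Of the 92 pairs with a common stretch 33 lay on 1 chromosome (35.9%), and of all 4654 possible pairs 1674 did (36.0%). The 33 had a median of 70, 64 and 55 counts, and the 59 between chromosomes a median of 55, 48 and 41, with ranges of 6 to 299 and 14 to 218 in G1 phase that overlapped. By chromosome pair the medians in G1 phase were 53 within I, 70 within II, 80 within III, 53.5 between I and II, 53.5 between I and III and 59 between II and III. Only 2 of the 92 pairs were separated by less than 50 kb.

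Over all partner classes 75 of 268, 86 of 309 and 66 of 234 interactions lay within 1 chromosome. These are 28.0% (Wilson 95% interval 23.0 to 33.6), 27.8% (23.1 to 33.1) and 28.2% (22.8 to 34.3). None of the 3 comparisons between phases was past the threshold (adjusted p = 1 in each, two-sided Fisher's exact test). By class it was 36.2%, 37.8% and 36.8% between arm tRNA fragments, 20%, 18.6% and 17.8% with the windows and 35.9%, 32.4% and 47.6% with other fragments. In the rest of the network, taken without LTR and rRNA fragments, the share was 51.7%, 47.9% and 51.5%. The arm tRNA share minus that of the rest was −23.8, −20.1 and −23.3 percentage points (two-sided Fisher's exact test within each pooled table, adjusted p = 6.4e-13, 1.36e-11 and 1.36e-11 over 3 tests, with pairs that share fragments as units). Without pairs that share a 50 bp stretch, neighbours of the fragments included, the arm tRNA share was 40%, 34.1% and 80% of 20, 41 and 5 interactions. In M phase this is above that of the rest, but such pairs were not left out of the rest, so these sets are unlike. Counts in pairs with a 50 bp stretch in common were not particular to tRNA genes: they made up 92.6%, 90.6% and 93.8% of the arm tRNA counts and 90.8%, 89.4% and 92.8% of the rest.

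By amino acid, the interactions between arm tRNA fragments were nearly all within a family, and 92, 92 and 91 of them are pairs with a 50 bp stretch in common. Of the 4654 possible pairs 258 join fragments with a tRNA gene of the same amino acid (5.54%), whereas 94 of 94, 94 of 98 and 94 of 95 interactions did so. The anticodon was known for both fragments in 78, 82 and 78 of these interactions, and it was the same in 78 (100%, Wilson 95% interval 95.3 to 100), in 78 (95.1%, 88.1 to 98.1) and in 77 (98.7%, 93.1 to 99.8). Without pairs that share a 50 bp stretch G1 phase had the same anticodon in 2 of 2, G2 phase in 2 of 6 (33.3%) and M phase in 2 of 3 (66.7%), and 4 of the 8 such pairs past the cut-off in any phase were of the same amino acid. Serine had the most, with 11 arm fragments, 19 pairs with a common stretch and 1962, 1985 and 1659 counts. Glutamine had 639, 613 and 495 counts in 3 pairs. The 8 glycine fragments had 421, 559 and 309 counts in 11 pairs and the 8 proline fragments 589, 335 and 574 in 10. The 2 tyrosine fragments shared no stretch of 50 bp and were not joined.

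Most families were lowest in M phase. Set against network counts, 15 of the 19 families with a shared pair had their lowest level in M phase and 4, those of cysteine, methionine, proline and threonine, in G2 phase. The highest level was in G1 phase for 14 and in G2 phase for 5. Network counts include those of LTR and rRNA fragments, and neither family levels nor ratios of pairs were computed without them. Some families were close in G2 and M phase: asparagine had a CPM of 34.6 and 34.4, histidine 106 and 102, and phenylalanine 95.1 and 85.9. Whether these keep their order with another denominator was not tested. Among the 92 pairs the CPM was lower in M than in G1 phase in 80, with a median ratio of 0.762, and lower in M than in G2 phase in 61, with a median ratio of 0.814. For comparison, of the 4486 network pairs with at least 10 counts in both G1 and M phase 51.3% were lower in M phase, with a median ratio of 0.987. With that floor, 79 of 90 arm tRNA pairs were lower. Of the 4101 network pairs with that floor in both G2 and M phase 48.2% were lower in M phase, with a median ratio of 1.04, and of the arm tRNA pairs 60 of 90. One table per phase allows no test of this shift.

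Proline and tryptophan, chosen after their values were seen, show how families differed. All 10 proline pairs had a lower CPM in G2 than in G1 phase, for example SPBTRNAPRO.05 with SPBTRNAPRO.07 with 70, 30 and 55 counts and SPATRNAPRO.03 with SPBTRNAPRO.06 with 47, 23 and 57. The 3 tryptophan pairs had their low values in M phase: SPBTRNATRP.02 with SPBTRNATRP.03 had 102, 128 and 51 counts, SPATRNATRP.01 with SPBTRNATRP.03 had 82, 131 and 42, and SPATRNATRP.01 with SPBTRNATRP.02 had 111, 97 and 41. The 6 values of the tryptophan pairs in G1 and G2 phase, 82 to 131 counts, lay above the 3 in M phase.

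Single pairs were called different between phases when their CPM differed at least 2-fold and the higher phase had at least 10 counts, with a count of 0 in the lower phase set to 3. Of the arm tRNA pairs of all classes with at least 10 counts in 1 of the phases compared, 40 of 209 were higher in G1 than in M phase (19.1%), against 16.7% of all network pairs, and 51 of 225 in G2 than in M phase (22.7%), against 26.7%. By class, higher in G2 than in M phase were 15.4% of the pairs between arm tRNA fragments, 19.8% of those with the windows and 14 of 18 with other fragments (77.8%). Higher in G1 than in M phase were 14.3%, 20.4% and 5 of 10 (50%). Fewer were higher in M phase, 0 of 209 against G1 phase, where the network had 7.53%, and 5 of 225 against G2 phase (2.22%), where it had 23.1%. Between G1 and G2 phase 6 of 226 were higher in G1 phase (2.65%, network 14.1%) and 9 of 226 in G2 phase (3.98%, network 11.6%). The calls have no replicate check, and the network values include pairs with LTR and rRNA fragments.

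Of 227 arm tRNA pairs with at least 10 counts in any phase, 2 were called higher in G1 phase than in both others (0.881%, network 3.18%). The glutamate genes SPBTRNAGLU.08 and SPCTRNAGLU.09 had 41, 21 and 19 counts. The fragment of SPATRNACYS.03 had 16, 7 and 2 counts with a chromosome I fragment (1421307 to 1421543) that carries no tRNA gene, and whose neighbour shares sequence with it. Higher in G2 phase than in both others were 9 (3.96%, network 9.85%), 4 with a centromere window and 5 with other fragments. The alanine gene SPATRNAALA.01 and the centromeric SPATRNAALA.04 had 9, 31 and 8 counts, SPCTRNASER.08 and the fragment at 1773943 to 1775904 on chromosome III had 5, 27 and 3, and the fragment of SPBTRNAGLY.04 and SPBTRNAALA.07 had 8, 19 and 5 with the fragment at 3762871 to 3764962 in the centromere I window. The chromosome III fragment lies next to that of SPCTRNASER.12, and the one in the centromere I window next to that of SPATRNAALA.04. Both pairs have a 50 bp stretch in common only when neighbours are included. None was called higher in M phase than in both others, where the network had 5.62%.

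Pairs with the centromere windows showed the same relation to sequence. The 97 arm fragments and the 171 window fragments that matched the reference form 16587 possible pairs, and all 114 with a common stretch of at least 50 bp were joined in each phase. They held 6193 of 6487 counts (95.5%), 6164 of 6571 (93.8%) and 4945 of 5153 (96.0%). Of the other 16473 possible pairs 192, 242 and 176 were joined (1.17%, 1.47% and 1.07%), mostly by 1 count. In 226 of these possible pairs a neighbour of a fragment brings in a common 50 bp stretch, and 16, 27 and 13 of the 226 were joined. The 226 held 47, 107 and 30 of the 280, 381 and 205 counts below 50 bp. They also held 6 of 20, 16 of 24 and 5 of 5 interactions there. At 40 to 49 bp 15, 13 and 8 of 19 were joined, with 36, 19 and 12 counts in all.

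**Figure D5:**
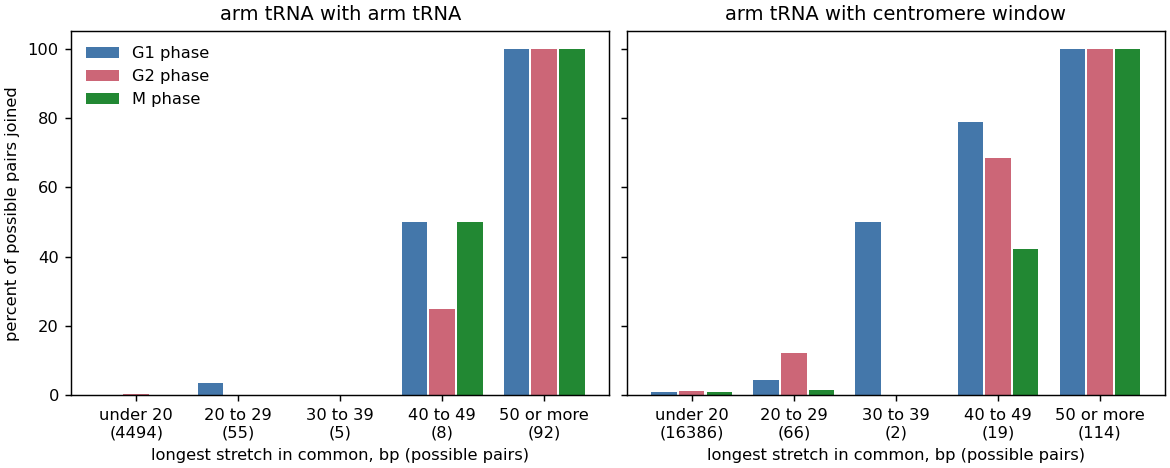
Percent of possible pairs joined by at least 1 count, by the longest stretch in common (bp, number of possible pairs in brackets), for arm tRNA fragments with each other (left) and with centromere window fragments (right), in G1, G2 and M phase. Both reach 100% at 50 bp or more in every phase and stay under 2% below 20 bp.

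Nearly all counts with the windows fell on the tRNA genes there. The 28 window fragments with a tRNA gene took 6318 of 6487 counts (97.4%, Wilson 95% interval 97.0 to 97.8), 6275 of 6571 (95.5%, 95 to 96.0) and 5008 of 5153 (97.2%, 96.7 to 97.6). Matched window fragments without a tRNA gene took 155, 270 and 142 counts, and the rest fell on fragments not matched to the reference. In 96.2%, 94.2% and 96.3% of the counts the arm and the window fragment carried genes of the same amino acid. An identical copy in a window went with more counts, though the ranges overlapped: the 38 arm fragments with such a copy had 42 to 437 counts with the windows (median 120), 24 to 519 (median 124) and 30 to 342 (median 101). The 59 without one had 0 to 66 (median 1), 0 to 87 (median 2) and 0 to 61 (median 1). The highest of these were SPCTRNAILE.09 with 62, 69 and 61 counts, SPATRNAILE.01 with 62, 73 and 56 and SPBTRNAPHE.03 with 66, 87 and 31.

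The families without a gene in the windows had few counts there, although methionine, with 1 gene in the windows, had 9, 3 and 3. Those without are cysteine, glutamine, histidine, proline and tryptophan, whose fragments had 3, 10, 2, 7 and 13 counts with the windows in G1 phase, while the aspartate fragments had 988 and the glutamate fragments 840. The order of the windows was not that of their tRNA gene numbers. Centromere I, with 7 tRNA genes, took 455, 563 and 362 counts. Centromere II, with 27, took 2715, 2662 and 2223, and centromere III, with 21, took 3317, 3346 and 2568. Arm fragments of chromosome I gave the most counts with the windows of II and III, 1904 and 1772 in G1 phase, and 137 with the window of their own chromosome.

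The 3 highest of these pairs joined glutamate genes of chromosome I with centromere II. SPATRNAGLU.02 (956971 to 957521) and the centromere II fragment of SPBTRNAVAL.05, SPBTRNAGLU.06, SPBTRNAARG.06 and SPBTRNAASP.05 (1600909 to 1605416) had 194, 205 and 223 counts. With the same centromere II fragment SPATRNAGLU.01 (718066 to 719259) had 114, 154 and 153 counts. SPATRNAGLU.02 and the fragment of SPBTRNAVAL.08, SPBTRNAGLU.07 and SPBTRNAARG.07 (1646247 to 1647360) had 141, 158 and 119. The centromere II fragment with 4 tRNA genes was also the window fragment with the most counts over all arm partners, 908, 891 and 830. The next pairs were SPBTRNALEU.10 with SPCTRNALEU.11 with 149, 136 and 98 counts and SPATRNAPHE.01 with SPCTRNAPHE.05 with 140, 142 and 97, both with centromere III.

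Among other fragments, the highest pairs again held tRNA genes, which the deposited annotation did not mark. SPBTRNAHIS.02 lies on a chromosome II fragment (958610 to 964101) without a tRNA annotation. It was joined to SPCTRNAHIS.04 by 107, 82 and 78 counts, to SPCTRNAHIS.03 by 76, 51 and 54 and to SPBTRNAHIS.01 by 67, 50 and 44. SPBTRNATHR.06, on a fragment of chromosome II (1502312 to 1504086) annotated with the histone gene pht1 but with no tRNA, was joined to SPCTRNATHR.10 by 52, 39 and 18 counts. These 4 pairs held 302, 222 and 194 of the 1076, 1139 and 671 counts of the class.

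A further 262, 371 and 121 counts of that class, in 50, 54 and 45 pairs, joined an arm tRNA fragment to the direct neighbour of a fragment with the same stretch, or the reverse. The highest was SPCTRNAILE.09 with a fragment at 1771852 to 1772250 on chromosome I, next to the fragment of SPATRNAILE.01, by 19, 30 and 23 counts. Pairs without such a stretch held 511, 545 and 355 counts in 481, 421 and 341 pairs, of which 459, 356 and 333 had a single count. A further 1 count in each phase fell on fragments not matched to the reference. Interactions among the neighbour pairs numbered 31, 40 and 16, and among the pairs without a stretch 4, 27 and 1, both most in G2 phase.

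Between arm tRNA fragments, contacts with no stretch of 50 bp in common were few and small. Over the 3 phases 28 pairs of arm tRNA fragments were joined without one, 18 of them by 1 count in all, and 8 reached the cut-off in at least 1 phase. Only SPATRNALYS.01 with SPATRNALYS.04 reached it in all 3. In 7 of the 28 an arginine and an aspartate gene were joined. The highest was SPATRNAARG.02 (chromosome I, 3731840 to 3737613, ending 2387 bp before the centromere window) with SPATRNAASP.02 (chromosome I, 5226594 to 5227311), with 2, 8 and 3 counts and a longest common stretch of 11 bp. SPATRNAARG.02 with SPBTRNAASP.04 had 1, 8 and 0 counts. In the windows arginine and aspartate genes stand on the same AseI fragment, as in the centromere II fragment named above, and whether this bears on these counts was not tested.

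With the windows, the highest pairs without a common stretch of 50 bp were the fragment of SPBTRNAGLY.04 and SPBTRNAALA.07 with SPATRNAILE.03 in centromere I with 8, 13 and 2 counts, SPATRNAPHE.01 with a fragment at 3751799 to 3752275 with 4, 10 and 2, and SPCTRNAPHE.04 with the same fragment with 3, 9 and 1. Only the fragment at 3752276 to 3752312 separates it from the fragment of the phenylalanine gene SPATRNAPHE.02 (3752313 to 3752493). That gene lies beyond the direct neighbours searched for a common stretch, and whether it bears on these counts was not tested. The pairs of SPBTRNATHR.07 with the centromere II fragment of SPBTRNAVAL.08 (2, 5 and 1 counts) and of SPATRNALYS.01 with SPCTRNALYS.10 (4, 3 and 0, with a common stretch of 47 bp) were lower. All 5 were highest in G1 or G2 phase. With other fragments the highest were SPATRNATHR.01 with the fragment of agn1, a glucanase gene of cell separation, with 3, 8 and 8 counts, SPCTRNAASN.05 with a fragment 7181 bp away with 7, 6 and 2, and SPBTRNAPRO.06 with the fragment of cap with 1, 10 and 0. SPCTRNAGLN.06 with a fragment at 2309557 to 2309900 on chromosome I had 2, 8 and 0 counts, and SPATRNAGLU.01 with the fragment of ded1, a gene for an RNA helicase, 2, 5 and 0.

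Of the other genes of RNA polymerase III, 3 were looked at, and rRNA fragments were left out by definition. The fragments of snu6 (U6 snRNA), srp7 (the RNA of the signal recognition particle) and rrk1 (the RNA of RNase P) had 0 counts with the 97 fragments in each phase, which allows up to 3 counts each. They were rarely joined to any fragment, with 0, 3 and 1 counts for snu6, 24, 18 and 16 for srp7 and 33, 36 and 10 for rrk1 in the whole network.

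By fragment, the counts separated along the same line. The 79 arm tRNA fragments with a 50 bp stretch that occurs elsewhere in the nuclear genome had 18 to 523 counts (median 264), 20 to 551 (median 262) and 17 to 529 (median 208). The 18 without one had 0 to 24 (median 4), 0 to 16 (median 4) and 0 to 24 (median 2), or 104, 94 and 62 counts in all. Over the whole nuclear genome 720 of the 9461 matched fragments hold such a stretch. Of the 10 fragments with the most counts 8 held a serine gene, SPATRNASER.02 highest with 523, 472 and 529 counts and SPCTRNASER.08 next with 514, 551 and 428, besides SPATRNAGLU.02 with 401, 456 and 381 and SPATRNAASP.02 with 456, 433 and 316. Of the counts of SPATRNASER.02 443, 385 and 429 were with other arm tRNA fragments, whereas of those of SPATRNAGLU.02 336, 363 and 342 were with the centromere windows.

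Across phases 227 of 325 interactions were found in all 3 (69.8%, Wilson 95% interval 64.6 to 74.6), against 37.7% of all network interactions, which include those with LTR and rRNA fragments. Found in a single phase were 13 in G1 (4%, network 20.8%), 51 in G2 (15.7%, network 16.7%) and 2 in M phase (0.615%, network 4.56%), so that the share in G2 phase alone was near that of the network. Of the 210 pairs with a 50 bp stretch in common 207 were interactions in all 3 phases. Of the 113 interactions whose own fragments have none 20 were (17.7%, 11.8 to 25.8) and 51 were interactions in G2 phase alone. Among these 113 are pairs with a direct neighbour of a fragment that holds the same stretch. Such neighbour pairs are not among the 20, 41 and 5 interactions without a shared stretch given above. The remaining 2 interactions hold a fragment not matched to the reference. By class, 92 of 100 interactions between arm tRNA fragments were shared by all phases, 116 of 150 with the windows and 19 of 75 with other fragments.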

How the data were processed

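GCC libraries of G1, G2 and M phase cultures were made, sequenced as 50 bp paired ends and positioned by the authors with Topography (SOAP) without mismatches; the labels name the genome build ASM294v2. The deposited counts are raw numbers of read pairs per pair of AseI fragments, with both biological replicates pooled, no normalization and no cut-off. Ends on repeated sequence are counted too, and uniquely positioned pairs are not marked. Columns of per-sample values not used numbered 0.

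Each pair was used once, and adjacent, mitochondrial and plasmid fragments were left out. Fragments were matched to the RefSeq reference by their AseI ends (9461 of 9464 matched), and tRNA genes, common stretches on either strand and sequences were read there. Fragment coordinates are those of the tables, 1-based. The anticodon was taken from the deposited annotation of a gene or of an identical gene, which gave 138 of 171. Shares carry Wilson intervals at the 95% level, which cover counting error only. Shares of interactions were compared with two-sided Fisher's exact tests (scipy 1.17.1) with Benjamini-Hochberg adjustment, over 12 tests between phases and 3 against the rest of the network, the latter added after the data were seen. Their units are fragment pairs, which are not replicates. Functions were tested on simulated data.

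Named pairs were the 5 with the most counts per class over the 3 phases, the 5 with the most counts per class without a 50 bp stretch in common (neighbours of the fragments included), the 10 fragments with the most counts, up to 3 pairs at least 2-fold higher in a phase than in both others, and pairs with snu6, srp7 or rrk1. Gene pairs that illustrate stretch length, copy number or a family were chosen after their values were seen. The members and lists were chosen with earlier results of these data known. Alternatives tried were other cut-offs, counts as weights, pairs with 50 or 25 bp in common left out (neighbours of the fragments included), other centromere boundaries, LTR and rRNA fragments kept, other denominators and equal depth.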

Additional observations from a re-analysis of the deposited data

Results flagged for a closer look

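Counts outside the comparisons above were found for the same 97 fragments. With mitochondrial fragments they had 31, 23 and 33 counts (G1, G2 and M phase, as in all sets of 3 values here), spread over 31, 21 and 26 pairs. Only 0, 1 and 1 of these pairs had at least 3 counts, so that no level above stray single counts can be read from the sums. With LTR fragments, which were left out by definition, they had 3034, 2154 and 3829 counts. Of these 94%, 92.7% and 96.8% lay in pairs with a 50 bp stretch in common. With fragments annotated with rRNA they had 3220, 2780 and 2195 counts, of which 61.6%, 61.7% and 74.6% were with rRNA fragments that also carry a tRNA annotation.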

How the results depend on the processing

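No paired analysis was possible because the tables pool both biological replicates of a phase, and for the same reason no replicate could be left out. The difference in the share of other fragments between G2 and M phase, 14 points, kept its direction but missed the threshold without pairs with 50 bp in common (45.9 points), with 25 bp in common (21.1) and with LTR and rRNA fragments kept (3.15). Differences that passed it only under an alternative were G1 minus G2 phase in the centromere share without 50 bp (50.5) and 25 bp (48.2) pairs and in the other share at a cut-off of 2 counts (−10.7) and without 50 bp pairs (−45.9), G1 minus M phase in the other share at a cut-off of 5 (7.55) and in the tRNA share without 50 bp pairs (−70), and G2 minus M phase in the tRNA share at a cut-off of 2 (−9.38) and without 50 bp pairs (−65.4). The centromere share, G1 minus M phase, turned from −0.054 to 70 without 50 bp pairs. Only 20, 41 and 5 interactions were left in G1, G2 and M phase in that setting, and 12, 38 and 2 without 25 bp pairs.

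The share of arm tRNA pairs among interactions moved from 35.1%, 31.7% and 40.6% to 10%, 14.6% and 80% without 50 bp pairs, to 0%, 10.5% and 50% without 25 bp pairs, to 19.5%, 19.8% and 22.5% with LTR and rRNA fragments kept, and to 48.6%, 47.1% and 48.8% when weighted by counts. The intrachromosomal share moved to 40%, 34.1% and 80% without 50 bp pairs. CPM of all arm tRNA pairs, 7151, 6631 and 5366, became 18752, 15274 and 13788 against counts without LTR or rRNA fragments and 6045, 5621 and 4558 without the 10 highest pairs, with the order of the phases kept. Interactions shared by all phases rose to 82.2% where 1 count sufficed in the other phases. The same-anticodon share became 99.4% and 99.8% in G2 and M phase when weighted by counts, and 33.3% (2 of 6) and 66.7% (2 of 3) without 50 bp pairs. The other 84 values tried stayed on their side of the threshold or within the interval of the main value.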
